A study of Rattus norvegicus with 16 samples.

Results

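The complement genes described here are C1qa, C1qb, C1qc, C1s, C2, C3, Cfd, C3ar1 and C5ar1, and their mRNA was followed in rat L4/L5 dorsal root ganglia (DRG), which hold the cell bodies of the sensory neurons of the sciatic nerve. Members were all probe sets of an Affymetrix rat expression array whose only annotated gene symbol was one of these 9 names. The rule found 8 of the 31042 probe sets tested, 1 each for 8 of the 9 genes. C2, the protease that builds the C3-cleaving enzyme, had 0 such probe sets, because its 4 probe sets also list its chromosomal neighbour Cfb, and no value is given for it.

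In spared nerve injury (SNI) the tibial and common peroneal branches of the sciatic nerve are tied and cut and the sural branch is left intact. Adult male Sprague-Dawley rats were 2 months old and young rats were 10 days old at surgery, and ganglia were taken 7 days later. The groups were adult SNI ipsilateral (3 arrays), adult SNI contralateral (3), adult sham (3), young SNI ipsilateral (2), young SNI contralateral (2) and young sham (3). The study started from 3 arrays per group and removed 1 young contralateral and 1 young injured array as outliers. Contralateral ganglia came from the uninjured side of SNI rats, and sham ganglia from the operated side of rats whose nerve was not cut. Each array held a pool of ganglia from 3 adult or 4 young rats, so that the spread is between pools, and whole ganglia were used, so that no value belongs to one cell type. All values are log2 GC-RMA intensities, on which a difference of 1 is a doubling.

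Complement is a cascade of plasma and tissue proteins that tags debris and microbes. In the classical pathway the C1q chains (C1qa, C1qb and C1qc) recognise a surface and the protease C1s, in the C1 complex, then cleaves C4 and C2, which leads to cleavage of C3. The protease Cfd (factor D, or adipsin) drives the alternative loop, and the small fragments of C3 and C5 act on cells through the receptors C3ar1 and C5ar1. In tissues the C1q chains are made mainly by macrophages and, in the central nervous system, by microglia.

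The 3 C1q genes stand side by side on rat chromosome 5 in the order C1qb, C1qc, C1qa, between Ephb2 and Epha8. C1s lies next to C1r on chromosome 4 and C5ar1 next to C5ar2 on chromosome 1. RefSeq promoter sequences (build GRCr8) were held for 5 of the 9 members, and those of C1qa, C1qb and C3 are shown because these genes moved together over the arrays. Each line gives the 250 bases before the start site, on the minus strand, at chr5:154419934-154420183 (C1qa), chr5:154407828-154408077 (C1qb) and chr9:2201340-2201589 (C3). Capitals mark the letters GAGGAA, a core of the site of the myeloid factor PU.1, and TTGCNNAA, a core of the site of the C/EBP factors, searched on both strands.
C1qa: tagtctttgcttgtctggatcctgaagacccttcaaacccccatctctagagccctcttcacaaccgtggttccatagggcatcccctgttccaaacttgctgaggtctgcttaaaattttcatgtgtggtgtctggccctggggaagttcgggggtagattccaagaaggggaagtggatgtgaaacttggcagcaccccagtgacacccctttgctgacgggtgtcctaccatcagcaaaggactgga
C1qb: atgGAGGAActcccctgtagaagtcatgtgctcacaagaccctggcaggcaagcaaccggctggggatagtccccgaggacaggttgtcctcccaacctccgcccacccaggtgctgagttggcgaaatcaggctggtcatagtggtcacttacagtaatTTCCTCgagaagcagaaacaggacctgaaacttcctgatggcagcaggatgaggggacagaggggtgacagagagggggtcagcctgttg
C3: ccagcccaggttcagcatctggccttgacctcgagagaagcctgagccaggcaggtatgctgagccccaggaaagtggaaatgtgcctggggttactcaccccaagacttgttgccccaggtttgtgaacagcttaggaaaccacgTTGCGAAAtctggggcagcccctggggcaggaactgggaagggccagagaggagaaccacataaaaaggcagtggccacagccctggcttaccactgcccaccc
GAGGAA stood at -247 to -242 and, on the other strand, at -90 to -85 of C1qb, and 23.3% of 33469 rat promoters of this length hold it. TTGCNNAA stood at -104 to -97 of C3, and 9.22% of promoters hold it. Neither was found in C1qa. The TATA box letters TATAAA (12.9% of promoters) were found in none of the 5 promoters. A match is a description of the letters and not a bound site.

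The genes spanned most of the range of the array. The probe set of C1s had the highest mean over the 16 arrays, above 91.6% of all probe sets tested, followed by C1qa (69.9%) and C1qc (69.4%). C1qb stood above 59.4%, Cfd above 52.0%, C3 above 46.3% and C5ar1 above 44.1%. C3ar1 stood above 27.7% and its values covered only 2.54 to 2.78, a range of 0.24. Levels of different probe sets depend on the probes and were not set against each other further.

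A few facts of the arrays touch these genes. Young SNI replicate 2 stood apart, because the mean of 7 genes of central nervous tissue was 11.44 there and 2.29 to 2.99 on the other arrays. Xist, transcribed in females, was 2.32 to 2.57 on the adult arrays, whereas in young pools it was 11.84 and 12.05 in SNI, 2.35 and 11.51 in contralateral and 11.87, 2.36 and 9.77 in sham ganglia. The young pools thus differed in Xist and 1 of them in tissue, and the part of either in the values below was not tested.

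In adult rats C1qb, C1qc, C3 and C5ar1 rose in SNI ganglia relative to the contralateral side, by log2 differences of 2.57 to 3.81. These 4 of the 8 member probe sets passed the adjusted limma test, all of them higher, but 0 of 8 passed with the replicate block or with adjustment over all 12 comparisons. The 4 stand against 1.03% of all probe sets called in either direction and 0.921% called higher. At an unadjusted p under 0.05 were 7 of the 8, against 9.83% of all. The median difference of the 8 was 3.07, against -0.04 over all probe sets tested. In 7 of the 8, every adult SNI array lay above every contralateral array, which held for 8.24% of all probe sets.

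C1qb encodes the B chain of C1q. It had log2 values of 7.65, 9.18 and 9.95 in adult SNI ganglia, against 4.47, 5.42 and 5.46 on the contralateral side and 6.96, 5.76 and 7.00 in sham. The SNI arrays did not overlap with either control, and SNI replicate 1 was the lowest of the 3. The difference from the contralateral side was 3.81 (SE 0.77, 14.0-fold, limma adjusted p = 0.04309), the largest among the members and the 30th largest rise among all probe sets.

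C1qc, the C chain, followed the same order. It had 8.85, 10.16 and 10.41 in adult SNI, against 6.21, 6.86 and 6.39 in contralateral and 8.16, 7.34 and 8.47 in sham ganglia. SNI replicate 1 lay close above the highest sham array. The difference from the contralateral side was 3.32 (SE 0.68, limma adjusted p = 0.04767).

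C1qa, the A chain, had 8.98, 9.80 and 10.35 in adult SNI, against 6.50, 7.22 and 6.86 in contralateral and 8.61, 7.45 and 8.47 in sham ganglia. Its groups were likewise separate. The difference from the contralateral side was 2.85 (SE 0.62, 7.21-fold) and just missed the threshold (limma adjusted p = 0.06307).

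**Figure D1:**
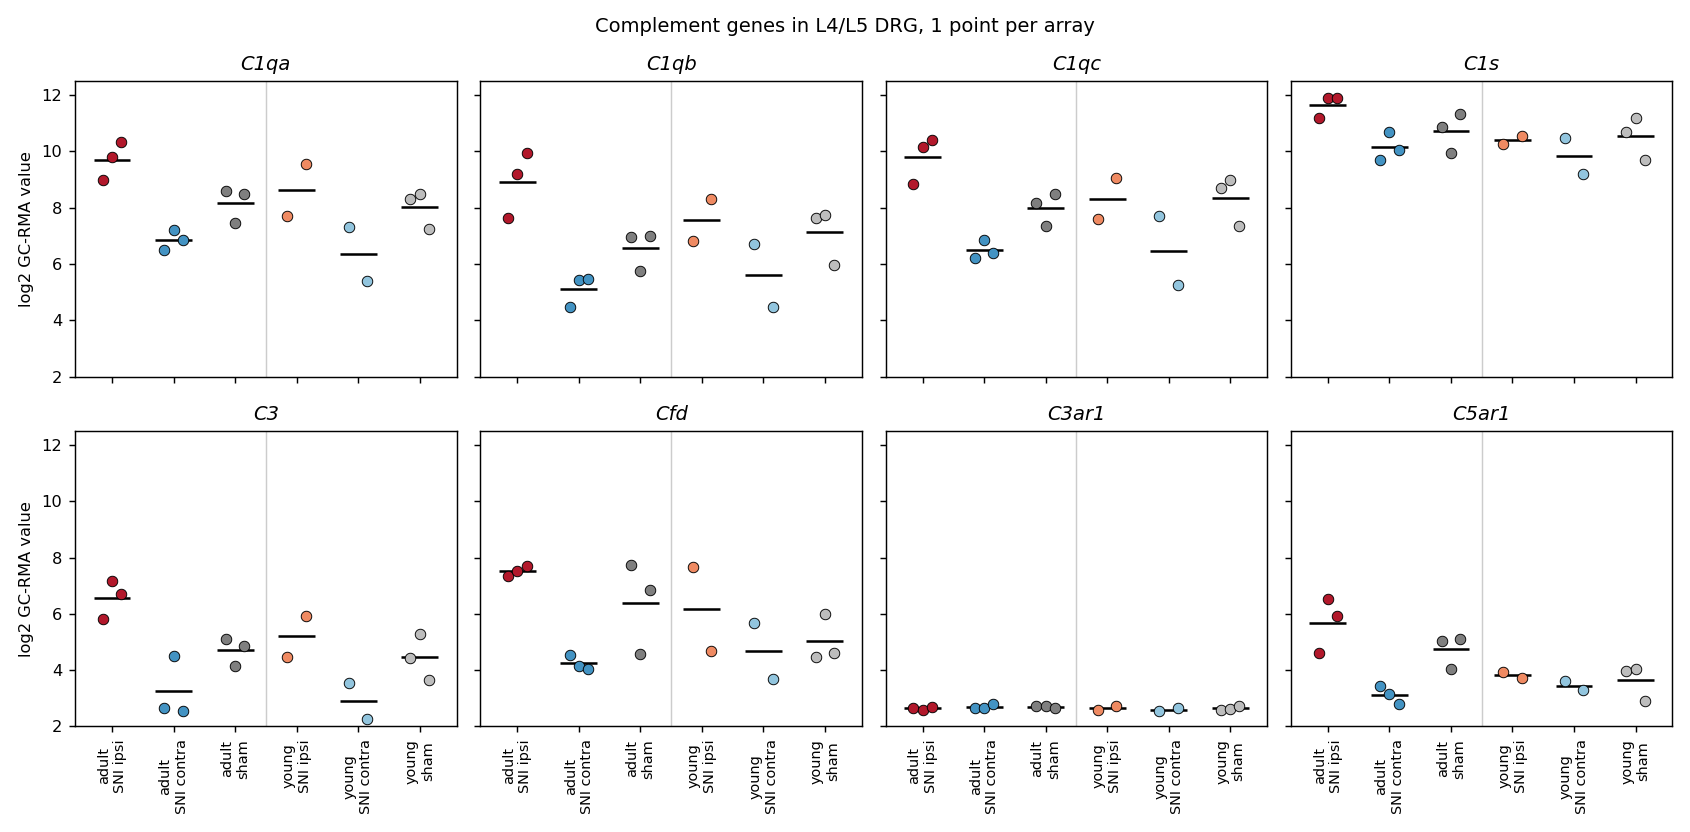
Log2 GC-RMA value (vertical axis) of each of the 8 complement genes by group, with 1 point per array and the group mean as a bar. Adult SNI arrays lie above all contralateral arrays in 7 of the 8 panels, and C3ar1 stays between 2.54 and 2.78 in every group.

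C3 is the component on which all pathways converge. It had 5.80, 7.16 and 6.71 in adult SNI, against 2.67, 4.50 and 2.56 in contralateral and 5.12, 4.15 and 4.85 in sham ganglia. All SNI arrays were above both controls, and contralateral replicate 2 was well above the other 2 of its group. The difference from the contralateral side was 3.31 (SE 0.65, limma adjusted p = 0.03789). Contralateral replicates 1 and 3 lay below 4, the level used here as the bound of low signal, so no fold is given. C3 was among the genes that the study selected on these same arrays, so this is not independent evidence of its direction. In its qPCR, the study instead grouped C3 with P2RY14 as specific to young SNI ganglia.

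C5ar1, the receptor for the C5 fragment C5a, had 4.62, 6.52 and 5.93 in adult SNI and 3.43, 3.14 and 2.79 on the contralateral side. Sham ganglia had 5.05, 4.05 and 5.12, which overlapped with SNI because SNI replicate 1 lay below 2 of the 3 sham arrays. The difference from the contralateral side was 2.57 (SE 0.47) and had the smallest adjusted p of the members (limma, 0.02852). All 3 contralateral arrays lay below 4, so no fold is given.

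Both proteases were higher on every SNI array than on every contralateral array, but did not pass. Cfd had 7.36, 7.53 and 7.71 in adult SNI, against 4.55, 4.15 and 4.03 in contralateral ganglia, a difference of 3.29 (SE 0.89, limma adjusted p = 0.1517). Its sham arrays were scattered at 7.72, 4.56 and 6.85, and replicate 1 of them exceeded all SNI arrays. C1s had 11.20, 11.89 and 11.90 in adult SNI, against 9.71, 10.70 and 10.04 in contralateral and 10.87, 9.96 and 11.34 in sham ganglia. Its difference from the contralateral side was 1.51 (SE 0.48, limma adjusted p = 0.2447). C3ar1, the receptor for C3a, had 2.65, 2.58 and 2.68 in adult SNI and 2.65, 2.66 and 2.78 in contralateral ganglia (difference -0.06, 95% interval -0.19 to 0.07). All of its values lay below 4.

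These bulk values cannot tell more cells of a type apart from more RNA per cell. The mean of 12 macrophage genes was 6.10 to 6.62 on the adult SNI arrays, 4.86 to 4.98 on the contralateral and 5.13 to 5.64 on the sham arrays. Of these 12 genes, 7 were called higher against the contralateral side, with log2 differences of 1.00 (Ms4a7) to 2.56 (Cd68), and 3 (Cd163, Cx3cr1 and Ms4a7) stayed below 4 on all arrays. The 7 became 3 with the replicate block, 1 without SNI replicate 2 or 3 or contralateral replicate 2, and 0 without contralateral replicate 1 or 3. The 6 fibroblast and sheath genes averaged 12.24 to 12.97 on the adult SNI, 11.27 to 11.99 on the contralateral and 11.57 to 12.93 on the sham arrays, and 0 of the 6 were called by limma against the contralateral side (4 at an unadjusted p under 0.05). The part of macrophage or fibroblast number in the complement differences was not tested.

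SNI and contralateral arrays of the same number deviated together in adults. The replicate block tied all arrays of the same number within an age, sham arrays from other rats included. A fit of the SNI and contralateral pairs alone was not run. With the replicate block 0 of the 8 members passed (169 of all probe sets), and the adjusted p were 0.09795 for C1qb, 0.09898 for C5ar1, 0.1116 for C3 and 0.128 for C1qc (limma with the replicate block). Within the 3 same-number pairs the differences were 3.18, 3.76 and 4.49 for C1qb, 2.64, 3.30 and 4.02 for C1qc and 2.48, 2.58 and 3.49 for C1qa. They were 3.13, 2.66 and 4.15 for C3, 2.81, 3.38 and 3.68 for Cfd, 1.49, 1.19 and 1.86 for C1s and 1.19, 3.38 and 3.14 for C5ar1. The direction was thus the same in every pair, and the pairs of C5ar1 were the most unequal. The call also depended on single arrays. It fell to 0 of 8 without SNI replicate 2 or 3 or contralateral replicate 1 or 3, to 1 without contralateral replicate 2, any of the 3 adult sham arrays or young sham replicate 1, and to 2 without young sham replicate 2. Over 24 alternatives each of the 4 genes stayed higher, and the adjusted p ranged from 0.0116 to 0.2044 for C1qb, 0.01376 to 0.2044 for C1qc, 0.01013 to 0.1846 for C3 and 0.005271 to 0.1349 for C5ar1.

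**Figure D2:**
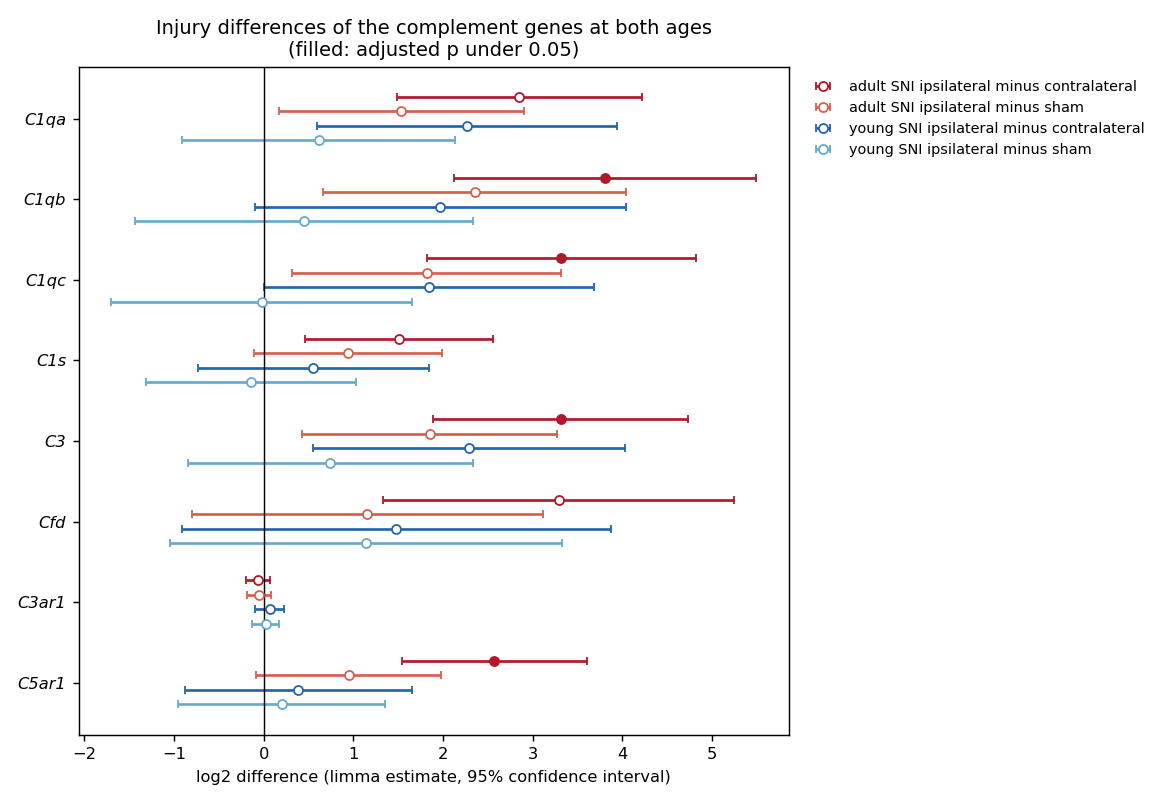
Limma log2 differences (horizontal axis, with 95% confidence intervals) of the 8 genes for SNI against the contralateral side and against sham, in adult and in young rats. Filled symbols mark adjusted p under 0.05, which only the contralateral comparison in adults reached, for C1qb, C1qc, C3 and C5ar1.

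Against adult sham, the control for surgery alone, the same genes were higher by less. Limma called 0 of the 8 members (0.48% of all probe sets were called, 149 of 31042), and 4 of the 8 had an unadjusted p under 0.05 (7.33% of all). Those 4 were C1qa, C1qb, C1qc and C3, whose SNI arrays were all above every sham array, as held for 4.17% of all probe sets. The differences were 2.35 for C1qb (SE 0.77, limma adjusted p = 0.3803), 1.85 for C3 (0.65, 0.4464), 1.82 for C1qc (0.68, 0.4988) and 1.53 for C1qa (0.62, 0.5703). Cfd (1.16), C5ar1 (0.95) and C1s (0.94) overlapped between the groups, and C3ar1 differed by -0.06. Of the 12 macrophage genes, only Ms4a7 was called in this comparison (0.98), and 9 had an unadjusted p under 0.05. That 1 call became 3 without SNI replicate 1 and 0 without any single sham array or with the replicate block.

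Against the mean of both adult controls the test again called 0 of 8 with limma (1.28% of all, 398 of 31042), whereas 7 had an unadjusted p under 0.05 (10% of all). C1qb (3.08, SE 0.67, limma adjusted p = 0.05164) and C3 (2.58, SE 0.56, 0.05306) lay at the edge of the threshold. C1qc (2.57, 0.07144), C5ar1 (1.76, 0.07209) and C1qa (2.19, 0.09143) were close to it, and Cfd (2.22, 0.2869) and C1s (1.23, 0.2679) were not. This count turned on single arrays too, being 4 without adult SNI replicate 1, 2 without any single young SNI or young contralateral array, and 1 without adult contralateral replicate 2 or young sham replicate 3.

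The 2 adult controls were also compared with each other. Relative to sham, contralateral ganglia had negative differences for 7 of the 8 members, with a median of -1.46 against 0.02 over all probe sets. Every contralateral array was below every sham array for C1qa, C1qb, C1qc, Cfd and C5ar1, 5 of 8, against 1.99% of all probe sets. Limma called 0 of 8, as it called 0% of all probe sets, and 4 members had an unadjusted p under 0.05 (2.01% of all). The sizes were -2.13 for Cfd, -1.62 for C5ar1 (limma adjusted p = 0.9801), -1.50 for C1qc, -1.46 for both C1qb and C3 and -1.32 for C1qa. The macrophage genes moved with them, since 1 of 12 had a positive difference and their median was -0.68, and the part of macrophages was not tested.

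In young rats limma called 0 of the 8 members against either control. Against young sham 0 had an unadjusted p under 0.05 (5.91% of all), 0 were separate between the groups (2.12% of all probe sets were higher on every array), and 0.0161% of all probe sets were called. C1qb had 6.82 and 8.31 in young SNI ganglia, against 6.71 and 4.48 in contralateral and 7.64, 7.75 and 5.97 in sham. SNI lay within the sham range on replicate 1 and above it on replicate 2, the array with central nervous tissue. The difference from sham was 0.44 (95% interval -1.44 to 2.33).

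C3 had 4.45 and 5.94 in young SNI, against 3.53 and 2.27 in contralateral and 4.42, 5.28 and 3.66 in sham ganglia. Its difference was 2.30 against the contralateral side (SE 0.79, limma adjusted p = 0.7981) and 0.74 against sham (95% interval -0.85 to 2.33). Both contralateral arrays and sham replicate 3 lay below 4, the bound of low signal. C1qa had 7.71 and 9.54 in young SNI, against 7.33 and 5.39 in contralateral and 8.31, 8.50 and 7.23 in sham ganglia. C1qa differed by 2.27 from the contralateral side (SE 0.76, limma adjusted p = 0.7981) and by 0.61 from sham. C1qc differed by 1.85 from the contralateral side and by -0.02 from sham.

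Against the young contralateral side 3 members (C1qa, C3 and C1qc) had an unadjusted p under 0.05 (5.94% of all), and 0.00966% of all probe sets were called. Both SNI arrays lay above both contralateral arrays for C1qa, C1qb, C3 and C5ar1, as they did for 5.86% of all probe sets. For the C1q chains and C3 the arrays numbered 2 differed far more than those numbered 1. The difference between arrays numbered 2 was 4.15 for C1qa, 3.83 for C1qb, 3.80 for C1qc and 3.67 for C3, and that between arrays numbered 1 was 0.38, 0.11, -0.11 and 0.92 for the same genes. C5ar1 differed little in either (0.42 for arrays numbered 2 and 0.35 for those numbered 1). All of its young SNI and contralateral arrays lay below 4, the bound of low signal, as did both contralateral arrays of C3. Without young SNI replicate 2, only replicate 1 was left in that group. The differences from the contralateral side were then 1.35 for C1qa, 1.23 for C1qb, 1.12 for C1qc and 1.55 for C3. Those from sham were -0.30, -0.30, -0.75 and 0.00 for the same genes. Without contralateral replicate 2, which left only contralateral replicate 1, the differences were 1.295 for C1qa, 0.855 for C1qb and 0.62 for C1qc. These were the lowest of the 24 alternatives for each chain, whereas for C3 the lowest was the 1.55 without SNI replicate 2. Leaving out young SNI replicate 1 left replicate 2, the array with central nervous tissue, as the only young SNI array. No call from that fit is given. The macrophage genes averaged 5.44 and 5.80 in young SNI, 4.60 and 5.03 in contralateral and 5.14 to 5.68 in sham ganglia, and limma called 0 of 12 against either control, with 5 at an unadjusted p under 0.05 against the contralateral side and 0 against sham. Against the mean of both young controls limma called 0 of 8 members (0.0226% of all), with C3 (1.52) and C1qa (1.44) at an unadjusted p under 0.05 (7.86% of all).

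Cfd split the young SNI pair, at 7.66 and 4.67, against 5.67 and 3.70 in contralateral and 4.47, 6.00 and 4.61 in sham ganglia. On replicate 1 the mean of 4 neutrophil genes was 8.24, the highest of the 16 arrays (4.62 to 7.03 elsewhere), and that of 7 adipocyte genes was 3.94, likewise the highest (2.67 to 3.74 elsewhere). Of the 4 neutrophil genes 1, Csf3r, was below 4 on all arrays (2.12 to 2.27). In adults, sham replicates 1 and 3, with Cfd at 7.72 and 6.85, had neutrophil means of 6.50 and 7.03, and sham replicate 2, with Cfd at 4.56, had 5.14. The adult SNI arrays had neutrophil means of 4.90 to 5.37 beside Cfd values of 7.36 to 7.71. The adipocyte means were 2.88 to 3.56 on the adult SNI, 2.67 to 2.92 on the contralateral and 3.32, 2.68 and 3.40 on the sham arrays. Of the 7 adipocyte genes 5 were below 4 on all arrays, Adipoq among them (2.98 on young SNI replicate 1). In adult SNI against the contralateral side 3 of the 7 had a positive difference, and their median was -0.01 (-0.04 over all probe sets). None was called, and 0 had an unadjusted limma p under 0.05. Fabp4, also made by other cells, was 5.24 to 9.17 in adult SNI and 3.39 to 5.15 in contralateral ganglia, with 8.02, 3.46 and 8.55 in sham. It was 10.27 and 6.10 in young SNI ganglia against 10.87 and 8.64 on their contralateral side. The part of either cell type in Cfd was not tested. Without young SNI replicate 2, which left replicate 1 as the only young SNI array, Cfd differed by 2.63 from sham and 2.98 from the contralateral side.

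The study set adult against young rats because pain behaviour follows SNI at this time in adults and not at the young age. The response, SNI minus the mean of both controls, was larger in adult than in young rats for 7 of 8 members by estimate, and limma called 0 of 8 differences in response (0.0966% of all probe sets were called, 30 of 31042). C5ar1 alone had an unadjusted p under 0.05, as 8% of all probe sets did (difference 1.47, SE 0.63, limma adjusted p = 0.6015). Its young arrays lay at 2.89 to 4.04 and its adult contralateral arrays at 2.79 to 3.43, below or close to the bound of low signal. The other estimates were 1.87 for C1qb (95% interval -0.40 to 4.15), 1.66 for C1qc, 1.06 for C3, 1.02 for C1s, 0.91 for Cfd, 0.75 for C1qa and -0.10 for C3ar1. An age difference in response was therefore not shown, nor do intervals of this width exclude one of several-fold. Without young SNI replicate 2 the differences were 2.62 for C1qb, 2.39 for C1qc, 1.81 for C3, 1.67 for C1qa and -0.58 for Cfd. These rest on replicate 1 as the only young SNI array.

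C5ar1 was the member with the smallest adjusted p between adult and young SNI ganglia. It had 4.62, 6.52 and 5.93 in adult SNI ganglia and 3.95 and 3.72 in young SNI ganglia, with no overlap. Its difference was 1.86 (SE 0.53, limma adjusted p = 0.08673). Both young SNI arrays lay below 4, so the young level is one of low signal and no fold is given. It passed under a filter on low values (limma adjusted p = 0.04238) and without adult SNI replicate 1 (0.02265), in a range of 0.02265 to 0.4559 over 23 alternatives. In sham ganglia C5ar1 had 5.05, 4.05 and 5.12 in adults and 3.97, 4.04 and 2.89 in young rats, a difference of 1.11 (limma adjusted p = 0.3635), with all adult arrays higher, as for 7.55% of all probe sets. On the contralateral side the groups overlapped (-0.33), and all arrays of both lay below 4. C1s also had all adult SNI arrays above both young SNI arrays (1.27, limma adjusted p = 0.2184).

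Limma called 0 of 8 members between adult and young SNI ganglia, with 2 at an unadjusted p under 0.05 (C5ar1 and C1s, 19.4% of all), while 2.64% of all probe sets were called and 13% were higher on every adult array. It called 0 of 8 between the shams (0.622% of all, with 1 member and 12.3% of all at an unadjusted p under 0.05) and 0 of 8 between the contralateral groups (0.177% of all, with 0 members and 9.52% of all at an unadjusted p under 0.05). Young contralateral against young sham ganglia gave 0 of 8 calls with limma (0% of all), 2 members with an unadjusted p under 0.05 (2.25% of all) and negative differences for 8 of 8, with a median of -1.11.

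Over the 16 arrays the C1q chains moved almost as 1 gene. Pearson's r was 0.958 for C1qa with C1qb, 0.975 for C1qa with C1qc and 0.978 for C1qb with C1qc, and from each array's deviation from its group mean it was 0.96, 0.969 and 0.963 for the same pairs. C3 correlated with the 3 chains at 0.913 to 0.955 and C1s at 0.863 to 0.899. Cfd followed them less closely (0.676 to 0.689, and 0.209 to 0.28 for deviations within groups), and C3ar1 did not (-0.069 to -0.229). These points share animals and arrays with the group differences above, so the values are descriptions.

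**Figure D3:**
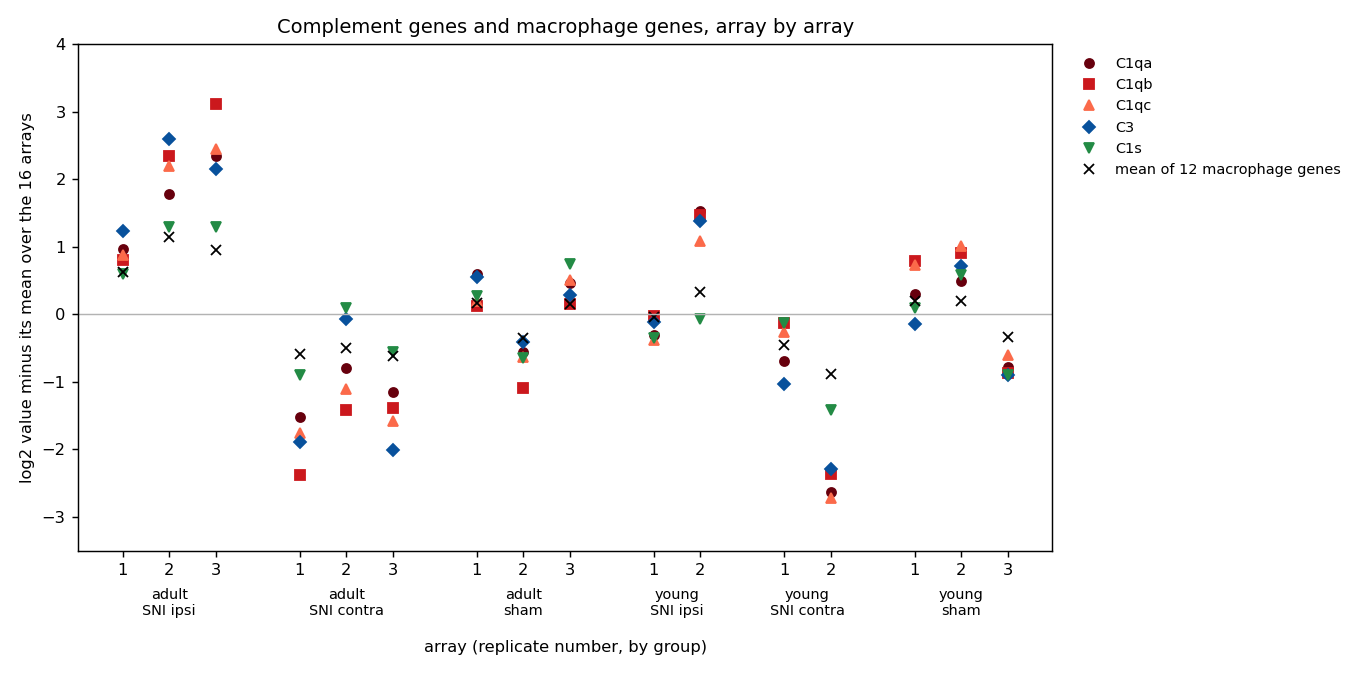
Log2 value of C1qa, C1qb, C1qc, C3 and C1s on each array minus that gene's mean over the 16 arrays (vertical axis), by group and replicate number, with the mean of 12 macrophage genes as crosses. The C1q genes and C3 lie close together on most arrays, are above 0 on all adult SNI arrays and are below it on all adult and young contralateral arrays.

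Among 12832 other probe sets with 1 gene symbol and a highest value of at least 6, the patterns most like those of the members were found by Pearson's r over 16 arrays. For C1qa they were Fcer1g, the shared chain of Fc receptors (0.982), Csf1r, the receptor of macrophage growth factors (0.97), and Pnp (0.948). For C1qb they were RT1-DMb (0.965), Pltp (0.95) and RT1-Ba (0.941), and for C1qc RT1-Db1 (0.967), Csf1r (0.964) and Clec4a3 (0.963), of which the RT1 genes encode class II antigen-presenting proteins. For C3 they were Fcer1g (0.962), Csf1r (0.956) and Aif1 (0.952). C1s had Cp (ceruloplasmin, 0.957), Adamts1 (0.955) and Csrp1 (0.951), and C5ar1 had Medag (0.94), Pycard (0.932) and Igfbp7 (0.91). Cfd had Plac8 (0.908), Pycard (0.903) and Fli1 (0.884), and C3ar1, with almost no range, had Rsph1 (0.848), Sapcd1 (0.827) and Osbp2 (0.809). Csf1r itself averaged 10.39 ± 0.43 in adult SNI, 8.13 ± 0.45 in contralateral and 9.08 ± 0.48 in sham ganglia (SD, n = 3 each).

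Other complement genes were taken from a list of 46 names, of which 33 were on the array. Limma called 0 of the 33 in SNI against any control at either age, with 5 at an unadjusted p under 0.05 in adult SNI against the contralateral side (9.83% of all probe sets), 2 against sham (7.33%) and 5 against the mean of both (10%). Without adult SNI replicate 3 each of these 3 counts of calls was 1, which against the mean of both was Itgax. The median difference of the 33 in adult SNI against the mean of both controls was -0.02, against -0.03 over all probe sets. Of the 33, 18 were below 4 on all arrays, among them all 6 terminal components measured (C5, C6, C8a, C8b, C8g and C9, 1.92 to 3.96), whose proteins form the membrane attack complex, and 4 of 8 lectin pathway genes. Of 8 regulators 3 were below 4, and of 5 further receptors 4.

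The 6 largest differences in adult SNI against the mean of both controls were all positive. Serping1, the C1 inhibitor that blocks C1r and C1s, had 1.30 (SE 0.36, limma adjusted p = 0.148), with means of 11.39 in SNI, 9.93 in contralateral and 10.26 in sham ganglia. C1r, the protease that activates C1s, had 0.92 (SE 0.33, limma adjusted p = 0.3088), with means of 9.91, 8.83 and 9.16 in the same order. Colec12, a scavenger receptor with a collectin domain, had 1.04 (limma adjusted p = 0.3705) and Vtn, or vitronectin, which restrains the terminal complex, 0.90 (0.4511). Itgax (0.95) and Itgb2 (0.66), subunits of complement receptor 4, did not exceed 3.96 on any array. Clu (clusterin), a regulator of the terminal complex, was the only one of the 33 called in any of the 12 comparisons. That comparison, adult against young SNI ganglia, called 2.64% of all probe sets, so 1 of 33 is near the general share. Of the 33, 9 had an unadjusted limma p under 0.05 there (19.4% of all). Clu was higher in adult than in young SNI ganglia, by 0.77 (13.60 against 12.83, SE 0.18, limma adjusted p = 0.04535). The young SNI arrays had 13.08 on replicate 1 and 12.58 on replicate 2. Without replicate 2, which left replicate 1 as the only young SNI array, the difference was 0.52. Clu passed under 7 of 23 alternatives (limma adjusted p 0.004633 to 0.3607) and was higher in each, and the call was lost in turn without adult SNI replicate 2 or 3, any contralateral array, any adult sham array or young sham replicate 2 or 3.

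**Figure D4:**
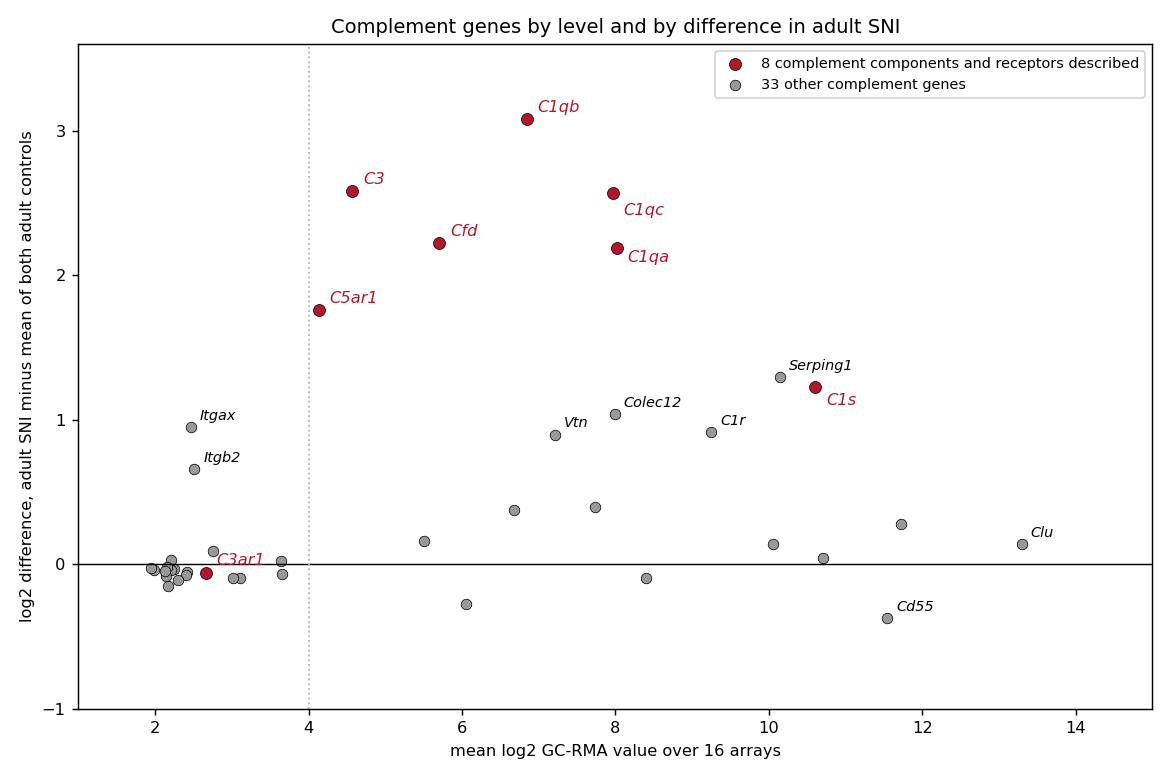
Mean log2 value over the 16 arrays (horizontal axis) against the log2 difference between adult SNI and the mean of both adult controls (vertical axis) for the 8 members (red) and 33 other complement genes (grey), with a dotted line at 4. C1qb, C3, C1qc, Cfd, C1qa and C5ar1 lie above all 33 others, whose highest is Serping1 at 1.30.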

How the data were processed

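Pooled DRG RNA was hybridised to 16 arrays. The authors computed GC-RMA values from the scans, and these deposited log2 values, held to 2 decimals, were used without further scaling. Tool versions behind them are not given in the sources. No reads were counted, so precision is limited by the number of pools.

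All 31042 non-control probe sets (57 controls left out) were fitted with limma 3.58.1 in R 4.3.3, as a model of 6 groups with moderated variances (1.243 prior degrees of freedom). Each of 12 comparisons was adjusted by Benjamini-Hochberg over all probe sets at 0.05, two-sided; unadjusted p come from the same fit. A single symbol was listed for 20826 probe sets, several for 436 and none for 9780. The symbols of all 8 genes matched the current RefSeq reference, which also lists a C1s pseudogene that its probes were not checked against.

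The named genes were the members, the other complement genes called anywhere, the 6 of that list with the largest adult differences and the 3 genes most like each member. Marker genes of other cell types, Xist and the terminal components were named outside this rule, after their values were seen. The members, gene lists and tests were chosen with earlier results of these data known, and the grouping of the other complement genes by role was made after their values were seen. Same-number deviations from the group means of adult SNI and contralateral arrays correlated at 0.449, 0.445 and 0.362 over all probe sets; the labels do not say that a number marks shared animals. Alternatives were an intensity trend or robust prior, a filter on low values (18540 probe sets above 4 on 2 or more arrays), array weights, quantile normalization, each age on its own, the replicate block, adjustment over all 12 comparisons and leaving out each array; those for the other complement and macrophage genes were added after seeing the data. The fit was tested on simulated data. Figures were drawn with matplotlib 3.10.9 in Python 3.11.15.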

Additional observations from a re-analysis of the deposited data

How the results depend on the processing

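Groups of 2 or 3 pools limit every comparison. The 4 members called in adult SNI against the contralateral side became 0 with the replicate block and 0 with adjustment over all 12 comparisons. The calls over all probe sets went from 321 to 169 and 179 in the same order. The 4 became 0 to 5 when single arrays were left out. The count against the mean of both adult controls, 0, became 3 with an intensity trend in the prior, 5 with the low-value filter, 1 with array weights, 3 with each age fitted on its own, and 0 to 4 when single arrays were left out. That between adult and young SNI ganglia became 1 with the low-value filter and 0 to 1 when single arrays were left out. With that filter 1292 of all probe sets were called, against 821 in the main fit. That in young SNI against the contralateral side moved from 0 only when young SNI replicate 1 was left out, which left 1 array in that group. The other 8 counts stayed at 0 under all alternatives run, the replicate block included, and no called difference of a member changed sign. C3ar1 was removed by the low-value filter. The mean of a gene's probe sets could not be run, since each member has 1. The numbers of young SNI and contralateral arrays (r 0.151 for their 2 pairs) were not taken as pairs, and the block changed no call there. For other genes, chosen after seeing the data, the 7 macrophage genes called against the contralateral side became 0 to 9, and the 0 other complement genes became 0 to 1. The causes of these changes were not tested.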
